A study of Mus musculus with 9 samples.

Results

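The Ly6 genes are a family of small cell surface proteins, and the 6 members described here, Ly6a (the gene of Sca-1), Ly6c1, Ly6c2, Ly6d, Ly6e and Ly6k, were picked by name from the Ly6 genes of chromosome 15, out of 50686 genes counted. Their RNA was compared in 9 RNA-seq libraries of BCR/ABLp185+ cell lines, which are mouse bone marrow cells of the C57BL/6N strain transformed with a retrovirus that carries the BCR/ABL oncogene. The lines were a wt, a Stat5a-/- and a Stat5b-/- line, 1 per genotype, each sequenced as 3 technical replicates, and all of them carry the oncogene and grew without further treatment. The knockout lines were made from marrow of mice that lack the transcription factor STAT5A or STAT5B, and mice aged 6 to 9 weeks are stated for the animal experiments, with no separate age for the marrow donors. Differences below therefore compare 3 single lines, p-values measure only the spread among libraries of a line, and genotype and line cannot be told apart.

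Ly6 proteins fold into a compact domain held by disulfide bonds, and most are tied to the outer leaflet of the membrane by a glycosylphosphatidylinositol (GPI) anchor. They are best known as markers: Sca-1 is used with Kit to sort haematopoietic stem and progenitor cells and also appears on activated lymphocytes, Ly6C on monocytes, plasma cells and memory CD8+ T cells, and Ly6d on lymphoid progenitors that have entered the B-cell path. Ly6a, Ly6c and Ly6e are known targets of interferon signalling. Ly6k is best known from the testis.

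The 6 genes lie within 349.915 kb of chromosome 15. In the GRCm38 coordinates of the count tables they are Ly6d (chr15:74762056-74763620, minus strand), Ly6k (chr15:74796874-74799986, minus), Ly6e (chr15:74955051-74959905, plus), Ly6a (chr15:74994877-74998031, minus), Ly6c1 (chr15:75044018-75048830, minus) and Ly6c2 (chr15:75108158-75111970, minus). Reads were assigned to the union of each gene's exons, untranslated regions included.

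Ly6c1 and Ly6c2 are near copies, and the first 260 bases of their coding sequences are shown because a 50-base read can be counted for one of them only where they differ. The sequences are spliced, 5′ to 3′ on the coding strand, from GENCODE M21 (GRCm38). In Ly6c1 and Ly6c2 the capitals mark the bases at which the pair differs, 7 of them in this stretch and 9 over the whole coding sequence. In Ly6a they mark the bases that differ from Ly6c2 or have no counterpart in it, 74 of 405 aligned positions over the whole coding sequence.
Ly6c1: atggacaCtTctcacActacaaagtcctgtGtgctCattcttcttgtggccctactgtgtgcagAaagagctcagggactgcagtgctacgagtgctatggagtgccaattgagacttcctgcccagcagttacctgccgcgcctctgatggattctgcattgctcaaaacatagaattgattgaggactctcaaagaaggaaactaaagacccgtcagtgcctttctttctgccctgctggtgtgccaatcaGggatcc
Ly6c2: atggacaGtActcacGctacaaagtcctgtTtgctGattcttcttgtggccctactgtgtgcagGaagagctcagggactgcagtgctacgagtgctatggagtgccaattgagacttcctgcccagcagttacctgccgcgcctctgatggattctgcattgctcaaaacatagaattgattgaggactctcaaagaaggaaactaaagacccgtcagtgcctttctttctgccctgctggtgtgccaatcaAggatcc
Ly6a: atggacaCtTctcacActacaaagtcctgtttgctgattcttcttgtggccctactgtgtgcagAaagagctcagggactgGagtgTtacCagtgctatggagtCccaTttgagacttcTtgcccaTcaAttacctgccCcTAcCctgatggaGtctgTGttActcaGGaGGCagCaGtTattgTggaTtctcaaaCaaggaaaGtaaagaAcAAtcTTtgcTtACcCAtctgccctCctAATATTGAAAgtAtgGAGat

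The coding sequences of Ly6c1 and Ly6c2 were identical at 97.7% of 396 positions, with an unbroken identical run of 188 bases that can be seen between the last 2 capitals above, and 162 of their 347 possible 50-base windows were shared. Ly6a was identical to Ly6c1 at 82.0% and to Ly6c2 at 81.7% of aligned positions. All other pairs lay between 46.5% and 52.6%. Over whole transcripts, 32.8% of the 50-base words of Ly6c1, 19.0% of those of Ly6a and 14.5% of those of Ly6c2 also occurred in another gene, and none of those of Ly6d and Ly6e. The counting dropped reads that fit several places, so Ly6c1 and the balance between Ly6c1 and Ly6c2 are uncertain. Ly6k has a different limit: 395 of its 829 exon bases (47.6%) also belong to Gm17189 on the opposite strand, and reads there were not assigned to Ly6k because strand was not used. Promoter windows from RefSeq (GRCm38.p6, 300 bases around a transcript start) were at hand for Ly6c1 and Ly6c2. None of their 4 windows held the STAT core TTCNNNGAA or the interferon response core, GAAA and GAAA with 2 free bases between them, on either strand, and the motifs occurred in 8.30% and 3.44% of 32851 mouse promoter windows, respectively.

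Depth lay between 11948136 and 19016396 counted reads per library. Values are given as CPM, which is counted reads scaled to a common library size with TMM, and every test is the quasi-likelihood test of edgeR, with p-values adjusted by Benjamini and Hochberg over the 13852 genes that passed a filter on low counts. Stat5a was at 43.1 ± 6.35 CPM (SD, n = 3) in wt and 12.4 ± 1.02 in Stat5a-/- libraries, and Stat5b was at 105.5 ± 1.957 CPM in wt and 63.4 ± 7.72 in Stat5b-/- libraries. Both targeted genes thus kept reads in their own knockout line (log2 fold change -1.80, adjusted p = 4.69e-07, and -0.73, adjusted p = 1.69e-04). The B-lineage markers Cd79a and Vpreb1 had at least 1717 reads in every library. Both were higher than in wt in Stat5a-/- (log2 fold change 0.83 and 0.33) and in Stat5b-/- (1.09 and 0.50), past the test. Other genes of early B cells went both ways against wt. Igll1 was higher in Stat5a-/- (0.73) and Stat5b-/- (0.59), while Rag1, Rag2 and Il7r were lower in both. Rag1, of the V(D)J recombinase, had a log2 fold change of -8.59 in Stat5a-/- and -6.59 in Stat5b-/- against wt, and Rag2 had -8.53 and -5.55. Il7r, the interleukin-7 receptor chain, had -1.10 and -0.43, and all of these passed the test. Means in wt, Stat5a-/- and Stat5b-/- were 64.7, 0.158 and 0.667 CPM for Rag1 and 32.5, 0.0767 and 0.677 CPM for Rag2. The knockout means of Rag1 and Rag2 lay below the filter's 0.682 CPM, so their fold changes set a high wt level against values near the floor. Markers of T cells were also present in every library, with summed levels of 567 to 822 CPM in wt, 846 to 1024 in Stat5a-/- and 1247 to 1891 in Stat5b-/- libraries, and these stand beside the results they touch. In such bulk samples, fewer cells of a type and less RNA per cell cannot be told apart.

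Both knockout lines held more Ly6 RNA than the wt line. In Stat5b-/- against wt, 6 of 6 members were higher, and in Stat5a-/- against wt 5 of 6, all except Ly6k. Over all tested genes, 24.2% were higher in the first comparison and 19.8% in the second, at the same adjusted p of 0.05. No member was lower in either, while 22% and 16.3% of all tested genes were. The median log2 fold change of the 6 members was 1.45 in Stat5b-/- and 1.31 in Stat5a-/- against wt, where that of all tested genes was 0.02 and 0.01. Ly6a, Ly6c2, Ly6d and Ly6e passed the filter on low counts in all 9 libraries, but Ly6c1 passed in no wt library and Ly6k in 1, so these 2 were tested only because the knockout lines lay higher. With the T-cell marker sum of each library as a covariate, described below, the members higher were 2 in Stat5b-/- and 5 in Stat5a-/-. The share of all tested genes called with this covariate was not computed, so these 2 counts have no background beside them. The 2 comparisons share the wt libraries. Where a fold change above 2 was also required, the members higher were Ly6a, Ly6c1, Ly6c2, Ly6d and Ly6k in Stat5b-/- (10.6% of all tested genes were higher and 8.44% lower by this rule) and Ly6a, Ly6c1, Ly6d and Ly6e in Stat5a-/- (7.75% higher and 6.49% lower).

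**Figure D1:**
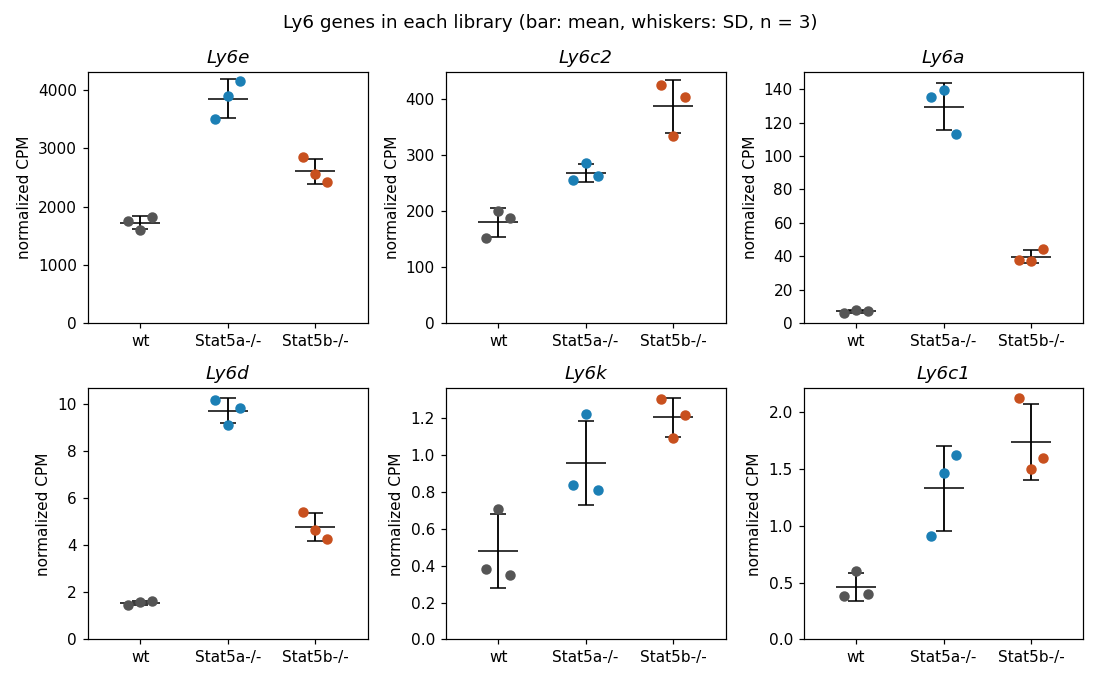
Normalized CPM of the 6 Ly6 genes, 1 point per library, in the wt, Stat5a-/- and Stat5b-/- lines (horizontal bar: mean, whiskers: SD, n = 3, each axis starts at 0). Ly6a, Ly6d and Ly6e are highest in the Stat5a-/- line, and Ly6c2 is highest in the Stat5b-/- line.

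The knockout lines did not share 1 profile. Directly compared, Ly6a, Ly6d and Ly6e were lower in Stat5b-/- than in Stat5a-/-, Ly6c2 was higher, and Ly6c1 and Ly6k did not pass the test. Of all tested genes, 17.5% were lower and 16.4% higher in this comparison. With the 2-fold limit the members lower were Ly6a and Ly6d and none was higher, where 6.6% of all tested genes were lower and 4.81% higher. The order for Ly6a, Ly6d and Ly6e was thus Stat5a-/- over Stat5b-/- over wt, and that for Ly6c2 was Stat5b-/- over Stat5a-/- over wt.

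Ly6a, which encodes Sca-1, moved furthest. Its level was 5.90, 7.58 and 7.57 CPM in the wt libraries, 135, 139.5 and 113 CPM in the Stat5a-/- libraries, and 37.9, 37.2 and 44.1 CPM in the Stat5b-/- libraries. The 3 groups of libraries did not overlap, with the wt line far below both knockout lines. Such separation was common. Of all tested genes, 25.5% lay wholly higher and 23.7% wholly lower in Stat5a-/- than in wt. In Stat5b-/- the shares were 27.4% and 26.8% against wt, and 22.3% and 22.5% against Stat5a-/-. These shares also stand beside the statements below on overlap between lines. Reads behind these values numbered 93 to 150 in wt, 1257 to 1935 in Stat5a-/- and 544 to 579 in Stat5b-/- libraries. Against wt the Stat5a-/- line was 18.4-fold higher (log2 fold change 4.20 ± 0.14 SE, adjusted p = 1.88e-10) and the Stat5b-/- line 5.64-fold higher (2.5 ± 0.14, adjusted p = 1.27e-08). Between the knockout lines the level was 3.26-fold lower in Stat5b-/- (-1.70 ± 0.13, adjusted p = 3.41e-07). These 3 calls held in each of the 19 alternative analyses.

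Other genes of the stem cell phenotype were measured in the same libraries. Kit, the stem cell factor receptor used beside Sca-1, had 5 to 16 reads per library, with means of 0.324 CPM in wt, 0.600 in the Stat5a-/- and 0.698 in the Stat5b-/- line, and was below the filter. Cd34 had 0 or 1 reads. Flt3, a receptor of early lymphoid and multipotent progenitors, had 12 to 79 reads per library and was lower than in wt in Stat5a-/- (log2 fold change -1.64, adjusted p = 2.93e-04) and in Stat5b-/- (-0.73, adjusted p = 0.0223). Slamf1, a surface receptor of stem cells and lymphocytes, had 32 to 98 reads and values of -0.54 (adjusted p = 0.131) and 0.10 (adjusted p = 0.759). Mecom, a stem cell transcription factor, had 0 in all 9 libraries. Of 8 stem and progenitor markers 2 passed the filter on low counts, and their summed level was 7.11 to 10.3 CPM in wt, 4.64 to 5.24 in Stat5a-/- and 6.15 to 9.53 in Stat5b-/- libraries.

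Ly6d, the marker of B-lineage specified lymphoid progenitors, followed the same order as Ly6a at a lower level. It stood at 1.46, 1.57 and 1.62 CPM in wt, at 10.1, 9.11 and 9.83 in Stat5a-/- and at 5.42, 4.65 and 4.27 in Stat5b-/- libraries. No library of a line fell within the range of another line. The Stat5a-/- line was 6.23-fold above wt (log2 fold change 2.64 ± 0.17 SE, adjusted p = 7.74e-08) and the Stat5b-/- line 3.08-fold (1.62 ± 0.18, adjusted p = 1.07e-05), and Stat5b-/- was 2.03-fold below Stat5a-/- (adjusted p = 2.57e-04). With 23 to 31 reads in wt and 56 to 145 in the knockout libraries, Ly6d was nevertheless called in the same direction in each of the 19 alternatives.

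Ly6e, an interferon-induced surface protein that also limits the entry of several viruses, was by far the most abundant member. It supplied 84.2% to 91.7% of all reads on the 6 genes and ranked between place 16 and place 38 among all genes of a library by reads. Its level was 1760.2, 1598 and 1819 CPM in wt, 3499.8, 3893 and 4163 in Stat5a-/-, and 2846, 2562 and 2423 in Stat5b-/- libraries. The lines were again separate, with the highest values in Stat5a-/-. The fold over wt was 2.23 in Stat5a-/- (log2 fold change 1.16 ± 0.11 SE, adjusted p = 3.16e-06) and 1.51 in Stat5b-/- (0.60 ± 0.11, adjusted p = 7.65e-04). Stat5b-/- was 1.48-fold lower than Stat5a-/- (adjusted p = 0.00192). In relative terms the change was small beside that of Ly6a, but in reads it was the largest of the family, from 0.166% to 0.190% of all counted reads in wt to 0.336% to 0.386% in Stat5a-/- and 0.254% to 0.283% in Stat5b-/- libraries.

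**Figure D2:**
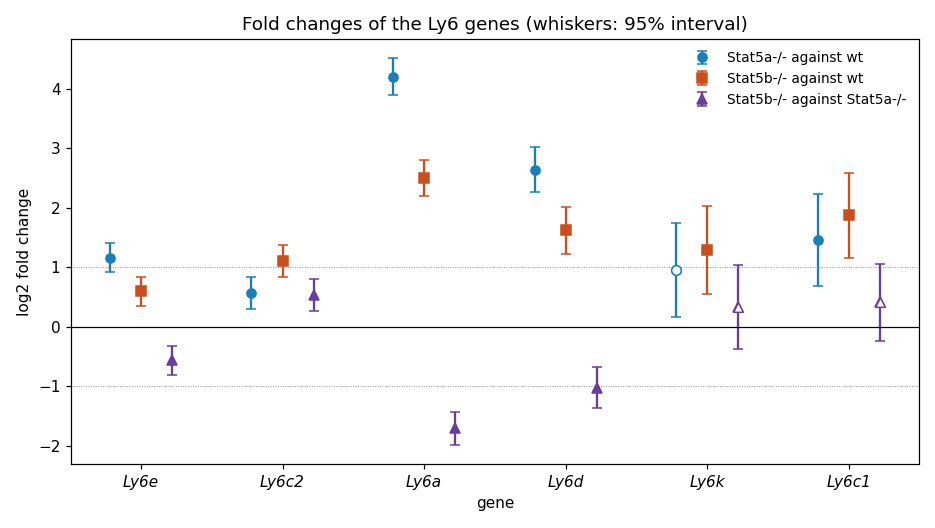
Log2 fold change of each Ly6 gene in the 3 comparisons, with whiskers of the 95% interval. Open symbols did not pass an adjusted p of 0.05, and dotted lines mark a 2-fold change. Ly6a, Ly6d and Ly6e lie below 0 and Ly6c2 above 0 in Stat5b-/- against Stat5a-/-.

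Ly6c2, the main gene of the Ly6C antigen in these libraries, differed from these 3 in that the Stat5b-/- line was highest. It was measured at 151, 201 and 188 CPM in wt, 256, 285 and 262 in Stat5a-/-, and 424, 334 and 403 in Stat5b-/- libraries. These groups did not overlap either. The rise over wt was 1.49-fold in Stat5a-/- (log2 fold change 0.57 ± 0.12 SE, adjusted p = 0.00268) and 2.15-fold in Stat5b-/- (1.11 ± 0.13, adjusted p = 1.10e-05), and Stat5b-/- was 1.45-fold above Stat5a-/- (0.53 ± 0.12, adjusted p = 0.00551).

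Unlike the other abundant members, Ly6c2 kept a nearly fixed proportion to T-cell markers. The ratio of Ly6c2 to the summed CPM of 12 T-cell markers lay between 0.224 and 0.310 in all 9 libraries, a 1.38-fold span, while Ly6c2 itself spanned 2.81-fold. The corresponding ratio spanned 14.9-fold for Ly6a, 6.09-fold for Ly6d, 3.57-fold for Ly6e, 3.56-fold for Ly6c1 and 2.59-fold for Ly6k. The 12 markers, among them Cd3e, Cd3d and Cd3g of the T-cell receptor complex, were all higher in Stat5b-/- than in wt, 5 of them rose in Stat5a-/- over wt, and 11 differed between the knockout lines, with Stat5b-/- higher. Over all tested genes 24.2%, 19.8% and 16.4% were higher in these comparisons. No marker was at 0 in any library. With the marker sum of each library as a covariate, the log2 fold change of Ly6c2 fell to 0.41 in Stat5b-/- against wt (adjusted p = 0.213) and to 0.08 in Stat5b-/- against Stat5a-/- (adjusted p = 0.765), and stayed called in Stat5a-/- against wt (0.32, adjusted p = 0.0415).

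The same covariate left Ly6a and Ly6d called in all 3 comparisons. Ly6a then stood 4.0 (log2, adjusted p = 1.19e-08) above wt in Stat5a-/- and 1.95 (adjusted p = 5.92e-04) in Stat5b-/-, and Ly6d 2.57 (adjusted p = 4.52e-06) and 1.44 (adjusted p = 0.0340). For Ly6e, Stat5b-/- stood 0.69 (log2) above wt with the covariate but with a standard error of 0.26 in place of 0.11, and the call was lost (adjusted p = 0.102). Its difference between the knockout lines kept its size (-0.50) and lost its call (adjusted p = 0.109), whereas the rise in Stat5a-/- did not change (1.19, adjusted p = 6.38e-05). The marker sums of the 3 lines did not overlap, so the covariate and the line are partly confounded.

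**Figure D3:**
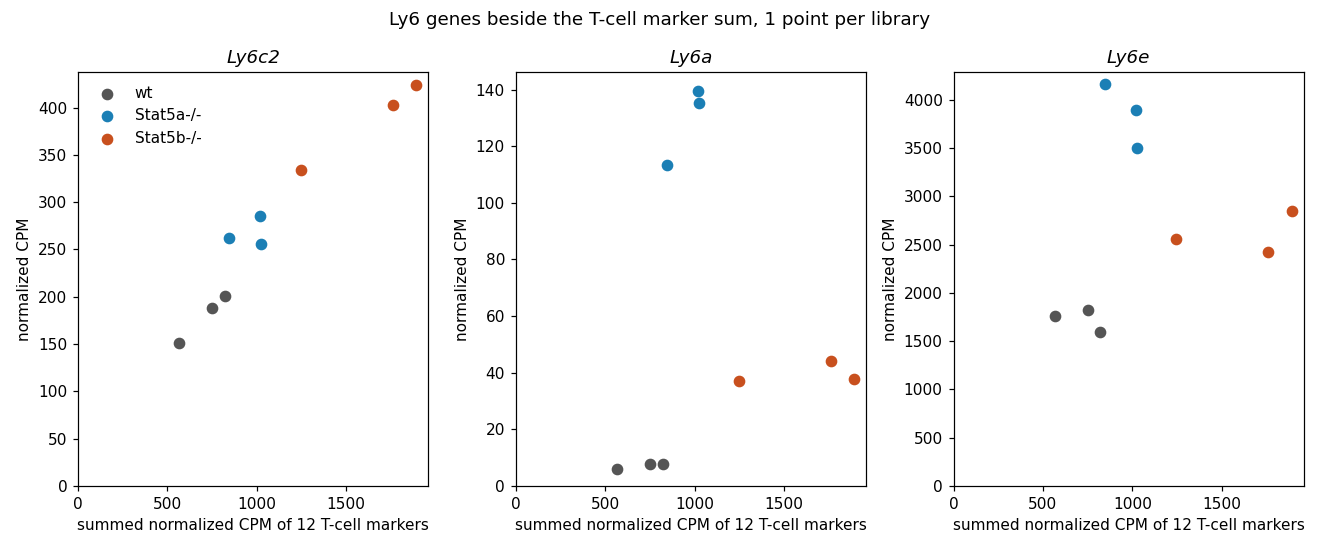
Normalized CPM of Ly6c2, Ly6a and Ly6e (vertical axes) beside the summed normalized CPM of 12 T-cell markers (horizontal axes), 1 point per library, coloured by line. Ly6c2 is higher in lines with a higher marker sum, though not in step with it among the 3 Stat5a-/- libraries, whereas Ly6a and Ly6e are highest in the Stat5a-/- libraries, whose sums are between those of wt and Stat5b-/-.

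Ly6c1, the near copy of Ly6c2, was close to the limit of detection. It had 6, 12 and 7 reads in the wt libraries, 13, 18 and 18 in Stat5a-/- and 31, 22 and 21 in Stat5b-/- libraries. The wt libraries were lowest, and the 2 knockout lines overlapped in CPM. Against wt the log2 fold change was 1.46 ± 0.35 SE in Stat5a-/- (adjusted p = 0.00549) and 1.87 ± 0.33 in Stat5b-/- (adjusted p = 4.86e-04), the latter being 1.34 with an adjusted p of 0.277 once the T-cell marker sum was a covariate. Between Stat5a-/- and Stat5b-/- no difference was detected (adjusted p = 0.311), and the 95% interval of the ratio of Stat5b-/- to Stat5a-/- ran from 0.851 to 2.08.

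Ly6k, known from sperm where its protein partners TEX101, had similarly few reads. The counts were 6, 14 and 6 in wt, 12, 15 and 9 in Stat5a-/-, and 19, 16 and 16 in Stat5b-/- libraries. In CPM the wt libraries lay below both knockout lines, which overlapped. The Stat5b-/- line was 2.44-fold above wt (log2 fold change 1.29 ± 0.34 SE, adjusted p = 0.00783), a call lost with the T-cell marker sum as a covariate (0.42, adjusted p = 0.762). In Stat5a-/- against wt the log2 fold change was 0.96 ± 0.36 and did not pass (adjusted p = 0.0569). That result rested on wt replicate 2, the wt library with 14 reads: without it the log2 fold change was 1.37 (adjusted p = 0.0256). The 95% interval of the ratio of Stat5b-/- to Stat5a-/- was 0.773 to 2.05 (adjusted p = 0.463). Its partner gene Tex101 had 0 or 1 reads per library.

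Levels can be set against each other only per length, as CPM per kb of exon. On that scale the wt line ran Ly6e (456 ± 30.3, SD, n = 3), Ly6c2 (65.6 ± 9.38), Ly6a (5.82 ± 0.800), Ly6d (2.08 ± 0.108), Ly6k (0.577 ± 0.240) and Ly6c1 (0.276 ± 0.0738). The Stat5b-/- line kept this order, with Ly6e at 689.8 ± 56.9, Ly6c2 at 141 ± 17.2 and Ly6a at 33.0 ± 3.16 CPM per kb. In the Stat5a-/- line Ly6a (107 ± 11.7) drew level with Ly6c2 (97.8 ± 5.62), and their libraries overlapped, while Ly6e was at 1018 ± 88.1. Ly6k and Ly6c1 were last in each line, and reads on the shared bases of both were not counted. Ly6a and Ly6c2 have such a limit too, with 19.0% and 14.5% of their 50-base words found in another gene. The lengths are those of the union of exons and not of the transcripts present, so the levels of Ly6a and Ly6c2 are compared only roughly.

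Most other genes of the chromosome 15 cluster had few or no reads. Of 20 listed Ly6 relatives around the 6 members, 18 were in the tables and 2 passed the filter on low counts. Lynx1, a modulator of nicotinic acetylcholine receptors, had 5 to 9 reads in wt, 20 to 26 in Stat5a-/- and 52 to 72 in Stat5b-/- libraries. It passed the filter in no wt library, so it was tested only because the knockout lines lay higher (log2 fold change 2.15, adjusted p = 1.38e-04, and 3.45, adjusted p = 4.39e-07). 2010109I03Rik had 1 to 4 reads in wt, 15 to 17 in Stat5a-/- and 3 to 8 in Stat5b-/- libraries, with log2 fold changes of 3.19 (adjusted p = 9.03e-05) and 1.46 (adjusted p = 0.0488), and it passed the filter only through the Stat5a-/- libraries. Lynx1 thus had its highest values in Stat5b-/-, and 2010109I03Rik in Stat5a-/-. Ly6g, the granulocyte antigen Gr-1, did not exceed 2 reads in any library, and Ly6i did not exceed 10.

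Ly6 relatives elsewhere in the genome were mostly not detected either, with 3 of 20 passing the filter. Plaur, the urokinase receptor, had 8 to 23 reads in the wt, 128 to 184 in the Stat5a-/- and 15 to 25 in the Stat5b-/- libraries. The Stat5a-/- line was higher than wt (log2 fold change 3.75, adjusted p = 2.00e-07), and in Stat5b-/- the value was 0.69 (adjusted p = 0.123). Between the knockout lines it was lower in Stat5b-/- (-3.06, adjusted p = 1.67e-06). Lypd6b, a modulator of nicotinic receptors, was higher in Stat5b-/- against wt (1.22, adjusted p = 0.00654) and had a value of 0.12 in Stat5a-/- (adjusted p = 0.818). Ly6g5b, from the Ly6 genes of the major histocompatibility complex, had values of 0.40 and 0.15 and passed in neither.

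Within 1 Mb of a member, 22 of 78 other genes were tested, of which 5 were higher and 2 lower in Stat5a-/- and 8 were higher and 6 lower in Stat5b-/- against wt, Lynx1 and 2010109I03Rik among those higher in both. Over all tested genes 19.8% were higher and 16.3% lower in the first comparison and 24.2% and 22% in the second. Their median log2 fold change was 0.23 and 0.21, and that of the 488 tested genes of chromosome 15 was -0.05 and -0.02. After Lynx1, the largest change in Stat5b-/- was that of Top1mt, the mitochondrial topoisomerase, which fell (-3.43, adjusted p = 7.55e-07) and also fell in Stat5a-/- (-2.48, adjusted p = 8.00e-06). Them6, which lies beyond Ly6d from Ly6a, fell in Stat5b-/- (-1.52, adjusted p = 1.77e-05).

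**Figure D4:**
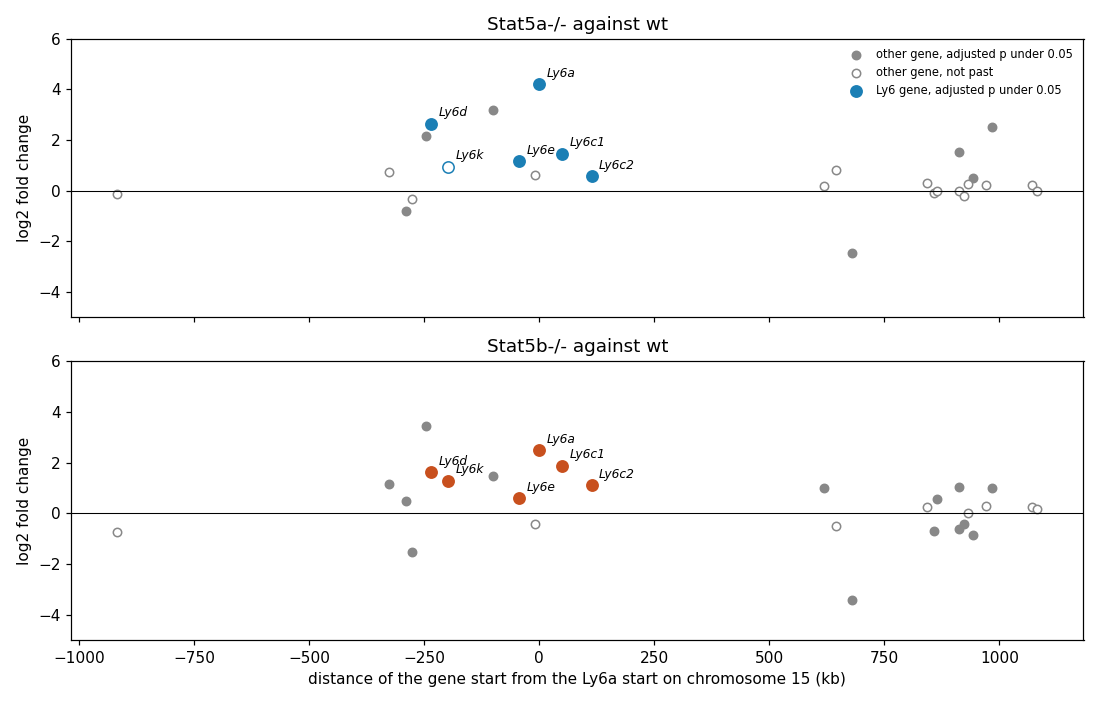
Log2 fold change against wt in the Stat5a-/- (top) and Stat5b-/- (bottom) line of the tested genes within 1 Mb of a Ly6 member, by distance of the gene start from the Ly6a start in kb. Coloured points are the 6 members and grey points other genes, and open points did not pass an adjusted p of 0.05. All members lie above 0, while other genes of the window lie on both sides.

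Genes that build and attach the GPI anchor, on which most Ly6 proteins depend, showed no common direction. Of 27 tested, 3 were higher and 4 lower in Stat5a-/-, and 6 were higher and 4 lower in Stat5b-/- against wt, with medians of -0.05 and -0.03. These shares are at or below those over all tested genes, 19.8% and 16.3% in the first comparison and 24.2% and 22% in the second. Pigp, a subunit of the enzyme of the first step, was lower in both knockout lines (log2 fold change -1.42 and -0.65, adjusted p = 1.25e-04 and 0.0160). Mppe1, which trims the finished anchor, was higher in both (1.28 and 0.99). Pigq, of the same first enzyme, rose in Stat5a-/- (0.75) and Pigh fell (-0.57). Pigv, a mannosyltransferase, rose in Stat5b-/- (1.42) and Pigl, a deacetylase, fell (-0.75).

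A list of 18 core interferon response genes, none of them a member, had more genes higher than lower in each comparison. In Stat5a-/- against wt 10 rose and 0 fell, in Stat5b-/- against wt 17 rose and 1 fell, and in Stat5b-/- against Stat5a-/- 13 were higher and 2 lower. Over all tested genes 19.8% were higher and 16.3% lower in the first comparison, 24.2% and 22% in the second, and 16.4% and 17.5% in the third. The list's medians in these comparisons were 0.82, 1.67 and 0.93 on the log2 scale, and those of the 6 Ly6 genes were 1.31, 1.45 and -0.12. Rsad2, an antiviral enzyme, rose by 1.48 in Stat5a-/- and 2.86 in Stat5b-/-. Gbp2, a guanylate-binding protein, rose by 3.44 and 2.86, and was lower in Stat5b-/- than in Stat5a-/- (-0.57, adjusted p = 0.00339). Bst2, tetherin, fell in Stat5b-/- against wt (-1.08).

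Among the 8526 tested genes with a mean of at least 10 CPM, those whose log2 CPM over the 9 libraries was most like a member differed from member to member, and since the 9 points come from 3 lines these correlations are descriptions. Ly6c2 was most like Tcf7 (Pearson's r = 0.997), a T-cell transcription factor, the T-cell surface protein Thy1 (0.993) and the interleukin receptor chain Il2rb (0.992). Values of r were as high for other members. Ly6a was most like Ighj2 (0.997), an immunoglobulin heavy chain joining segment, Gm43305 (0.996) and Rfk (0.996), a riboflavin kinase. Ly6d was most like Fcrla (0.996), a B-cell Fc receptor-like protein, Gm43305 (0.995) and Smpd1 (0.993), an acid sphingomyelinase. For Ly6e the nearest were Phactr4 (0.992), Epg5 (0.992) and Ndrg3 (0.992). For Ly6c1 they were Phf1 (0.967), Cblb (0.964) and Vamp1 (0.963), and for Ly6k Zfp638 (0.963), Zc3h11a (0.959) and Gimap5 (0.951). Mean levels of Ighj2 were 0.0385 CPM (wt), 37.5 CPM (Stat5a-/-) and 6.07 CPM (Stat5b-/-).

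Markers of other cells that carry Ly6 proteins were also measured. The 8 myeloid markers summed to 5.02 to 7.52 CPM in wt, 5.13 to 6.50 in Stat5a-/- and 9.16 to 10.97 in Stat5b-/- libraries. Among them Lyz2 had 43 to 129, Csf1r 6 to 24 and Itgam 1 to 11 reads per library, and Elane was at 0 in 8 of 9 libraries. Fcgr1, the third of the 3 myeloid markers that passed the filter beside Lyz2 and Csf1r, was lower in both knockout lines, with means of 1.45, 0.291 and 0.162 CPM. The 5 plasma cell markers summed to 246 to 270.1 CPM in wt, 443 to 507 in Stat5a-/- and 439 to 487 in Stat5b-/- libraries. Of these, Sdc1 was highest in wt (33.2 CPM against 3.98 and 7.82), Xbp1 was highest in Stat5a-/- (109.8, 271 and 184 CPM in wt, Stat5a-/- and Stat5b-/-), and Irf4 (114, 202 and 267 CPM) and Prdm1 (0.723, 1.09 and 2.27 CPM) were highest in Stat5b-/-. The 6 natural killer cell markers summed to 71.3 to 104, 92.5 to 114 and 126 to 202 CPM for wt, Stat5a-/- and Stat5b-/-, of which Nkg7 made up most (means of 55.3, 76.3 and 121 CPM). Klrb1c went the other way, with means of 10.3, 4.43 and 1.63 CPM, and Ncr1 had 1 to 5 and Klrd1 151 to 575 reads per library. The part of these cells, or of T cells, in the Ly6 levels was not tested. The T-cell marker sum as a covariate cannot measure it, because the sums of the 3 lines did not overlap.

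**Figure D5:**
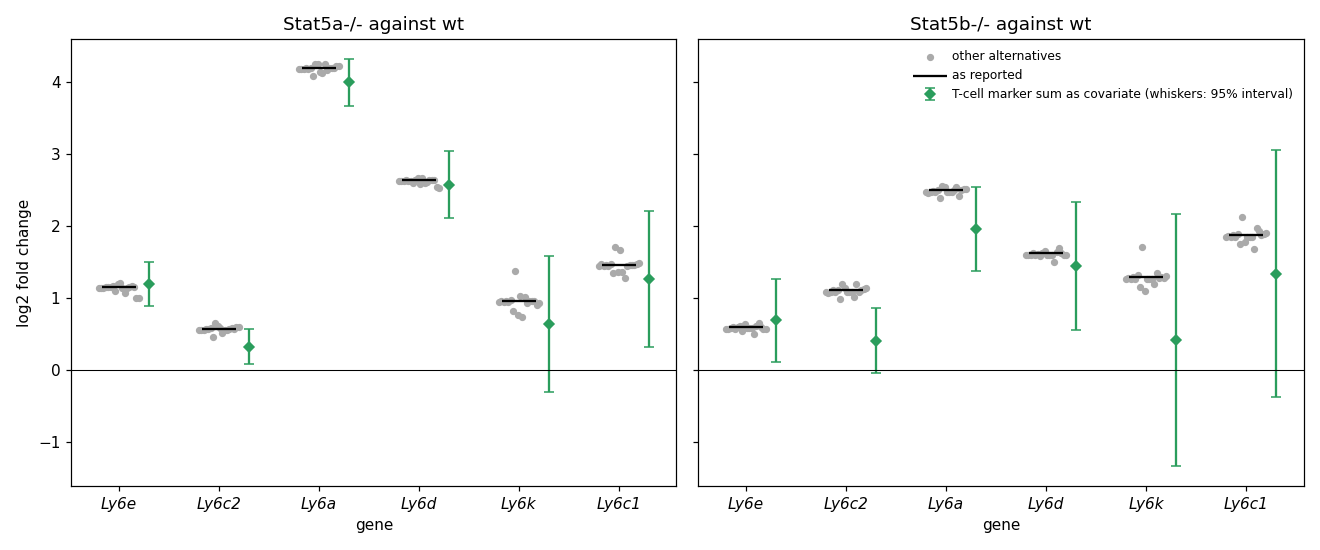
Log2 fold change of each Ly6 gene against wt in the Stat5a-/- (left) and Stat5b-/- (right) line: black bars as reported, green diamonds with the T-cell marker sum as a covariate (whiskers: 95% interval), grey points the other alternatives. With the covariate the whiskers of Ly6a and Ly6d stay above 0 in both lines, and those of Ly6k in both lines and of Ly6c1 and Ly6c2 in Stat5b-/- reach below it.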

How the data were processed

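The deposited tables hold whole-number read counts per gene, without normalization. The authors made poly(A) libraries with the Lexogen SENSE kit, sequenced single-end reads of 50 bases, trimmed them with Trimmomatic, mapped them with STAR against GENCODE M13 (GRCm38) and counted exon reads with featureCounts 1.5.1. Per the file headers, strand was not used and reads on several genes or places were dropped. Deposited exon lengths gave CPM per kb.

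Libraries were grouped by the genotype in titles and labels. The descriptions of knockout samples read as wt, in conflict with both. Symbols came from GENCODE M21 (50376 of 50686 genes). Counts were first filtered with filterByExpr (about 0.682 CPM, before scaling, in 3 libraries) and then scaled with TMM. They were fitted over all 9 libraries with edgeR 4.0.16 (glmQLFit and glmQLFTest, R 4.3.3). Standard errors were derived from each log2 fold change and its F statistic, and 95% intervals from them with the t distribution at the degrees of freedom of the fit. A call needed an adjusted p under 0.05. The steps were tested on simulated counts. Alternatives were RLE scaling, DESeq2 1.42.0, a mean of at least 10 counts or no filter, fits of the compared lines alone, a replicate block, each library left out, a 2-fold limit, the T-cell marker sum as a covariate and, chosen after seeing the data, an offset for GC content with and without the block. Counts of replicate libraries of a line varied beyond sampling noise (chi-square over degrees of freedom 4.63 to 28.0).

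The members, gene lists and tests were chosen with earlier results of these data known. Named were all members, Stat5a and Stat5b, tested genes of the Ly6 lists, the 2 largest rises and 2 largest falls of the GPI anchor and interferon lists in each knockout line, the first 3 markers of each cell type (some markers, and the lists that hold them, are not reported here), the 4 largest neighbour changes in Stat5b-/- and the 3 genes most like each member. Mecom, Slamf1, Igll1, Rag1, Rag2, Il7r, Elane, Fcgr1, Nkg7, Irf4, Ly6g, Ly6i and Tex101 were named after their values were seen. Reads carried no molecular identifiers, so they are not independent molecules. Protein sequences were not used here.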

Additional observations from a re-analysis of the deposited data

How the results depend on the processing

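Of the log2 fold changes of the 6 genes in 3 comparisons under 19 alternatives, 331 kept their side of the threshold, 10 lost and 1 gained the call, and 0 called values changed sign. The uncalled value of Ly6k in Stat5b-/- against Stat5a-/-, 0.33, was -0.22 with the T-cell marker sum as a covariate. With the T-cell marker sum as a covariate, the members higher in Stat5b-/- against wt numbered 2 in place of 6. Those higher in Stat5b-/- against Stat5a-/- numbered 0 in place of 1. The share of all tested genes called with this covariate was not computed. Among the calls lost against wt, that of Ly6e went with a larger standard error and not with a smaller log2 fold change. The number higher in Stat5b-/- against Stat5a-/- was also 0 under the 2-fold limit, which Ly6c2 missed by construction. Without 1 library the members higher ranged from 5 to 6 in Stat5a-/- and stayed at 6 in Stat5b-/- against wt. The replicate numbers did not pair the libraries (mean correlation of deviations -0.18 over 9 pairs with the same number, 0 of 9 libraries closest to their own number). Under a replicate block, the members higher were 5 in Stat5a-/- and 6 in Stat5b-/- against wt, and 1 was higher and 3 lower in Stat5b-/- against Stat5a-/-, each as without it. At 6 to 31 reads per library, changes of Ly6c1 and Ly6k were imprecise.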
